A study of Mus musculus with 28 samples.

Results

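Homeostatic microglia genes are transcripts by which resting microglia, the resident macrophages of the brain, are recognised. The 9 examined here were P2ry12, P2ry13, Tmem119, Csf1r, Sall1, Siglech, Gpr34, Selplg and Fcrls, taken as a list of symbols and matched to Ensembl gene identifiers, and each matched 1 of the 55414 genes listed in the deposited tables. They were followed across 28 whole-brain RNA libraries from mice given cuprizone, a copper chelator that kills oligodendrocytes and strips myelin from the brain. The design holds 4 groups of 7 libraries. TNFR1ff mice, which carry a loxP-flanked Tnfr1 gene and were backcrossed to C57BL/6, were sampled naive (CPZ0) and at peak demyelination (CPZ5). In remyelination (CPZ6+1) the design compares mgTNFR1KO mice (Cx3cr1-CreER.Tnfr1ff), in which tamoxifen had been used to delete TNFR1 from microglia, with TNFR1ff mice. The loxP-flanked allele is thus common to all 4 groups, and the CreER transgene and tamoxifen are described for the knockout mice alone. With no naive mgTNFR1KO libraries, mgTNFR1KO remyelination differs from naive in stage and genotype together, and these cannot be told apart for any gene. No ages or sexes are stated, and the labels do not say that each library is a separate animal, so the p-values measure the spread between libraries, which may be partly technical.

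Microglia depend for survival on the CSF1 receptor, sense ATP and ADP leaking from damaged cells through P2Y receptors, and keep their identity through transcription factors such as SALL1 under TGF-beta signalling. When microglia meet myelin debris or injury they commonly lower several homeostatic genes while turning on phagocytic and lipid-handling genes. Cx3cr1-CreER acts in microglia and also in other Cx3cr1-expressing cells such as border macrophages and monocytes, and in the commonly used lines the CreER takes the place of 1 Cx3cr1 copy.

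The libraries were made with QuantSeq, which counts fragments near the 3' end of polyadenylated RNA. Library totals ran from 1522913 to 2150500 expected counts in naive brains, 1695221 to 2417151 at demyelination, 1531719 to 2986498 in mgTNFR1KO remyelination and 1864535 to 3137254 in TNFR1ff remyelination. Levels are given as CPM, counts scaled to the library total and to TMM factors, on which a floor of 3 counts corresponded to 0.945 to 2.36 CPM. In mgTNFR1KO replicate 1 a single gene, ENSMUSG00000119584.1, took 1.33% of the counts and in naive replicate 1 it took 25.54%, the lowest and highest shares. Some results that rest on these libraries, such as the P2ry12 and Fcrls calls in mgTNFR1KO remyelination against naive, are therefore also given without both. The log2 fold changes of Csf1r, Selplg and Sall1 and those between the genotypes are not. Of the 12423 genes tested, Tnfrsf1a, the gene of TNFR1, averaged 21.9 ± 4.18 CPM in mgTNFR1KO remyelination and 23.0 ± 4.43 CPM in TNFR1ff remyelination (SD, n = 7 each), a log2 difference of -0.05 (adjusted p = 0.962, from the quasi-likelihood test of edgeR, adjusted by Benjamini-Hochberg over the genes tested, as for every adjusted p below unless stated). Whole brain holds many cell types with this receptor and 3' counting may lie outside the deleted part, so that value does not check the genotype labels.

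All 9 genes had counts in every group. Of these, 7 passed the filter on low counts and were tested: P2ry12, Tmem119, Csf1r, Sall1, Siglech, Selplg and Fcrls. P2ry13 and Gpr34 did not, with 40 to 59 counts per group of 7 libraries for P2ry13 and 43 to 59 for Gpr34. At demyelination against naive brains 2 of the 7 were higher and 0 were lower, where 2.0% of all genes tested were called, 1.30% as higher and 0.700% as lower. In TNFR1ff remyelination against naive 2 were higher and 0 lower, beside 0.628% of all genes, 0.451% higher and 0.177% lower. In mgTNFR1KO remyelination against naive 2 were higher and 1 was lower, beside 3.24%, 1.54% higher and 1.71% lower. The 2 higher genes were Csf1r and Fcrls each time, and the lower one was P2ry12; these 3 comparisons share the naive libraries. None of the 7 was called in TNFR1ff remyelination against demyelination, where 0.386% of all genes were (0.201% higher, 0.185% lower), nor in mgTNFR1KO against TNFR1ff remyelination, where 0.0483% were (0.0402% higher, 0.00805% lower). At an unadjusted p under 0.05 these last 2 comparisons gave 1 gene (Fcrls) and 2 genes (P2ry12 and Sall1), and DESeq2 called 1 and 0. The median log2 fold change over the 7 was 0.17 at demyelination, 0.52 in mgTNFR1KO remyelination and 0.20 in TNFR1ff remyelination, each against naive, and 0.19 between the genotypes and 0.02 in TNFR1ff remyelination against demyelination, while the median over all genes tested lay between -0.01 and 0.00 in the 5 comparisons.

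**Figure D1:**
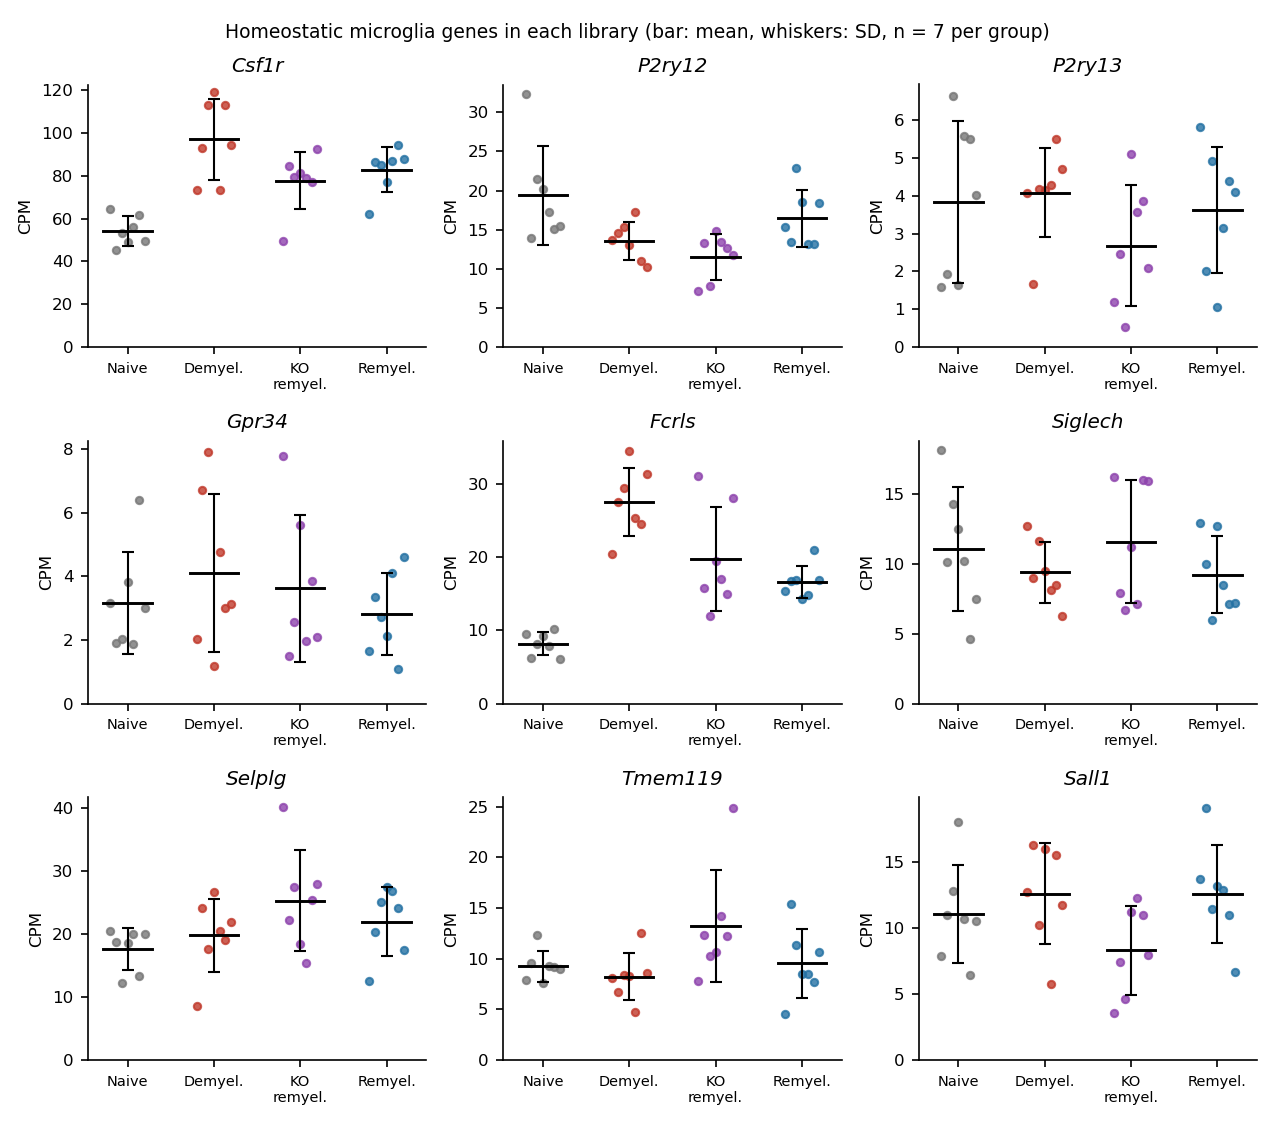
Level of each of the 9 homeostatic microglia genes in every library, in CPM scaled by TMM factors (vertical axes), by group (horizontal axes); points are libraries and bars the mean with SD, n = 7 per group. Csf1r and Fcrls lie lowest in naive brains, with Fcrls averaging 27.5 CPM at demyelination and 8.16 CPM in naive brains, while P2ry12 averaged 11.6 CPM in mgTNFR1KO remyelination and 19.4 CPM in naive brains.

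Csf1r (ENSMUSG00000024621.17, chromosome 18) encodes the receptor for the growth factors CSF1 and IL-34. It ranged from 73.3 CPM to 119 CPM at demyelination with a median of 94.3, against 45.2 to 64.6 CPM with a median of 53.1 in naive brains. The groups did not overlap, and Csf1r was 1.79-fold higher at demyelination, 0.84 on the log2 scale (SE 0.128, edgeR adjusted p = 1.79e-05). In TNFR1ff remyelination Csf1r ran from 62.4 to 94.4 CPM with a median of 86.4, and it was 0.62 higher than in naive brains on the log2 scale (SE 0.129, edgeR adjusted p = 0.00654), with the ranges meeting only at their edges. In mgTNFR1KO remyelination it ran from 49.7 to 92.7 CPM with a median of 79.6, and was 0.53 higher than in naive brains (SE 0.129, edgeR adjusted p = 0.0162). Without mgTNFR1KO replicate 7 that last value was 0.48 with an adjusted p of 0.0613 in edgeR, so the call rested on that library. Between the genotypes in remyelination the log2 difference in Csf1r was -0.09, with a 95% interval of -0.34 to 0.17 (edgeR adjusted p = 0.906), and between TNFR1ff remyelination and demyelination it was -0.23 (-0.48 to 0.02, edgeR adjusted p = 0.791). In whole brain a change in the number of cells that carry a transcript and a change in its amount per cell cannot be told apart.

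Of the ligands of this receptor, Csf1 averaged 32.8 ± 9.16 CPM at demyelination and 17.8 ± 3.8 CPM in naive brains (SD, n = 7 each), a log2 fold change of 0.85 (edgeR adjusted p = 0.00351). It was also higher in mgTNFR1KO remyelination, by 0.63 against naive (edgeR adjusted p = 0.0489), whereas the 0.40 in TNFR1ff remyelination did not pass (edgeR adjusted p = 0.415). Il34, the neuronal ligand, averaged 17.5 ± 4.73 CPM at demyelination and 23.3 ± 5.85 CPM in naive brains (edgeR adjusted p = 0.354).

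Fcrls (ENSMUSG00000015852.14, chromosome 3) encodes an Fc receptor-like protein that marks microglia in mice. It ranged from 20.4 to 34.4 CPM at demyelination with a median of 27.5, against 6.01 to 10.1 CPM with a median of 8.17 in naive brains. Every demyelination library lay above every naive one, and the log2 fold change of 1.75 (SE 0.200, edgeR adjusted p = 2.78e-08) was the largest among the 7 genes in that comparison. In TNFR1ff remyelination Fcrls ran from 14.3 to 20.9 CPM with a median of 16.7, again above all naive libraries, with a log2 fold change of 1.02 (SE 0.206, edgeR adjusted p = 0.00438). In mgTNFR1KO remyelination it ran from 11.9 to 31.1 CPM with a median of 17.0, also above all naive libraries, at 1.28 (SE 0.204, edgeR adjusted p = 0.000144). Without naive replicate 1 and mgTNFR1KO replicate 1 this was 1.18 (edgeR adjusted p = 0.00063). The step between the stages was smaller: Fcrls was 0.74 lower on the log2 scale in TNFR1ff remyelination than at demyelination (SE 0.181, unadjusted p = 0.000211, edgeR adjusted p = 0.0524). That value fell just short of the threshold, and it passed in 5 of 21 alternative fits, over which the adjusted p ran from 0.0232 to 0.152. Between the genotypes Fcrls differed by 0.26, with a 95% interval of -0.11 to 0.63 (edgeR adjusted p = 0.766).

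P2ry12 (ENSMUSG00000036353.14, chromosome 3) encodes the ADP receptor that steers microglial processes toward damaged cells. It ranged from 10.2 to 17.2 CPM at demyelination with a median of 13.7, against 13.9 to 32.3 CPM with a median of 17.2 in naive brains. The groups overlapped, and the log2 difference of -0.49 (SE 0.203) had an unadjusted p of 0.0203 and an edgeR adjusted p of 0.255. In TNFR1ff remyelination P2ry12 ran from 13.2 to 22.9 CPM with a median of 15.4, and differed from naive by -0.23 (edgeR adjusted p = 0.731). In mgTNFR1KO remyelination it ran from 7.18 to 14.8 CPM with a median of 12.7, the lowest median of the 4 groups, and was lower than in naive brains by a log2 difference of -0.71 (SE 0.205, edgeR adjusted p = 0.0457). This call was not firm: it passed in 6 of 21 alternative fits, and without naive replicate 1, whose 32.3 CPM was the highest P2ry12 value, it was -0.56 (edgeR adjusted p = 0.118). Without both naive replicate 1 and mgTNFR1KO replicate 1 it was -0.48 (edgeR adjusted p = 0.145). Leaving out each library in turn gave -0.77 to -0.56 with edgeR adjusted p of 0.0368 to 0.118, and the call was lost without naive replicate 1, 3, 4 or 5 or without any mgTNFR1KO replicate other than 4. Between the genotypes in remyelination P2ry12 differed by -0.48, with a 95% interval of -0.89 to -0.07, an unadjusted p of 0.0235 and an edgeR adjusted p of 0.622.

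P2ry12 and Fcrls are both on chromosome 3 and were called in opposite directions in mgTNFR1KO remyelination against naive, so the windows around their start sites are shown, from 250 bases before to 50 bases after the start, 5' to 3' on the minus strand, from RefSeq on GRCm38.p6. Capitals mark GAGGAA and AGGAAG on either strand, short cores of the sites bound by ETS factors such as PU.1, the factor that drives macrophage genes. The P2ry12 window is chr3:59262936-59263235 and the Fcrls window is chr3:87263475-87263774.
P2ry12: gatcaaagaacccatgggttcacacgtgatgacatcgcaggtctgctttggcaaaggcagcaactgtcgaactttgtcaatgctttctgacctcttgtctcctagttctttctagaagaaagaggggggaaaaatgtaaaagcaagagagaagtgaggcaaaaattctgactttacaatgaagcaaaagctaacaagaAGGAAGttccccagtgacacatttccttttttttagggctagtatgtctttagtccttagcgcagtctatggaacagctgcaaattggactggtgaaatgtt
Fcrls: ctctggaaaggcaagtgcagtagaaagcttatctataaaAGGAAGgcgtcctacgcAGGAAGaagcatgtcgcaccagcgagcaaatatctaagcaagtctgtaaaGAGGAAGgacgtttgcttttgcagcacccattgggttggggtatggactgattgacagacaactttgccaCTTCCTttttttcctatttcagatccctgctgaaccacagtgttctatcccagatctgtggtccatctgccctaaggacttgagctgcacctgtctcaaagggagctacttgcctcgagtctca
Bases just after the start were found in a GENCODE M21 transcript of the same gene for Fcrls but not for P2ry12. The P2ry12 start site is therefore uncertain. The P2ry12 window holds 1 AGGAAG, starting 52 bases before the RefSeq start site (position -52). The Fcrls window holds AGGAAG at -211, -194 and -143 and its reverse complement at -74, and GAGGAA at -144, which overlaps the AGGAAG at -143. Of 32815 such windows, 35.4% held AGGAAG and 28.3% held GAGGAA on either strand, so both are common letters and a match here is a description only. Windows were also found for P2ry13, Sall1 and Siglech, so 5 of the 9 genes had one.

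The other receptors of this kind had 1 to 17 counts per library. P2ry13, a second ADP receptor that lies beside P2ry12, ran from 1.58 to 6.64 CPM in naive brains, 1.68 to 5.51 at demyelination, 0.517 to 5.10 in mgTNFR1KO remyelination and 1.06 to 5.82 in TNFR1ff remyelination. Gpr34, a lysophosphatidylserine receptor of the same family, ran from 1.86 to 6.41 CPM in naive brains, 1.19 to 7.92 at demyelination, 1.48 to 7.78 in mgTNFR1KO remyelination and 1.10 to 4.61 in TNFR1ff remyelination. The ranges overlapped throughout, and with no filter on low counts the edgeR log2 differences against naive were 0.07 for P2ry13 and 0.38 for Gpr34 at demyelination, neither called (adjusted p = 1 and 0.813). Whether differences of that size could have been detected at these counts was not tested. Among 9 other genes of purine signalling 7 were tested, and the only call in any of the 5 comparisons was Gnai2, a G-protein subunit found in most cells, 0.54 higher on the log2 scale in mgTNFR1KO remyelination than in naive brains.

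Tmem119 (ENSMUSG00000054675.6, chromosome 5), a membrane protein used to tell microglia from blood-derived macrophages, ranged from 4.78 to 12.5 CPM at demyelination with a median of 8.30, against 7.63 to 12.3 CPM with a median of 9.16 in naive brains. The ranges overlapped, with a log2 difference of -0.18 and a 95% interval of -0.71 to 0.35 (edgeR adjusted p = 0.83). In TNFR1ff remyelination it ran from 4.57 to 15.4 CPM with a median of 8.51, a difference of 0.04 from naive (edgeR adjusted p = 0.974). In mgTNFR1KO remyelination it ran from 7.78 to 24.9 CPM with a median of 12.2, the highest of the 4 medians, yet neither the 0.49 against TNFR1ff remyelination (95% interval -0.01 to 0.98, edgeR adjusted p = 0.671) nor the 0.53 against naive (0.02 to 1.04, edgeR adjusted p = 0.241) passed.

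Sall1 (ENSMUSG00000031665.8, chromosome 8), the transcription factor that holds microglial identity, ranged from 5.73 to 16.3 CPM at demyelination with a median of 12.7, against 6.41 to 18.0 CPM with a median of 10.7 in naive brains. It ran from 3.59 to 12.3 CPM with a median of 7.96 in mgTNFR1KO remyelination, against 6.65 to 19.1 CPM with a median of 12.9 in TNFR1ff remyelination. The log2 difference between the genotypes was -0.60, with a 95% interval of -1.13 to -0.06, an unadjusted p of 0.0295 and an edgeR adjusted p of 0.635. The differences from naive were 0.18 at demyelination, -0.40 in mgTNFR1KO remyelination and 0.20 in TNFR1ff remyelination, and none was called. Among 9 transcription factors of microglia, 6 were tested and 1, Irf8, a driver of macrophage development, was called: it averaged 28.4 ± 5.88 CPM at demyelination and 7.01 ± 1.82 CPM in naive brains (SD, n = 7 each; log2 fold change 2.0, edgeR adjusted p = 2.33e-08). None of the 9 tested genes of TGF-beta signalling was called in any of the 5 comparisons by edgeR, with at most 2 at an unadjusted p under 0.05 in any one.

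Siglech (ENSMUSG00000051504.19, chromosome 7), a sialic acid-binding receptor of microglia, ranged from 6.26 to 12.7 CPM at demyelination with a median of 8.98, against 4.58 to 18.1 CPM with a median of 10.2 in naive brains. Its log2 differences in the 5 comparisons lay between -0.23 and 0.32 with no call, and the group ranges overlapped in each. Selplg (ENSMUSG00000048163.14, chromosome 5), the P-selectin ligand and a neighbour of Tmem119, ran from 15.4 to 40.1 CPM in mgTNFR1KO remyelination with a median of 25.4, against 12.3 to 20.5 CPM with a median of 18.7 in naive brains. That difference was 0.52 on the log2 scale (95% interval 0.09 to 0.94, unadjusted p = 0.0178, edgeR adjusted p = 0.162). At demyelination Selplg had a median of 20.5 CPM, and the difference from naive was 0.17 (edgeR adjusted p = 0.794). Tyrobp, the adaptor through which SIGLEC-H and TREM2 signal, averaged 48.0 ± 10.8 CPM at demyelination and 10.3 ± 4.49 CPM in naive brains (SD, n = 7 each), a log2 fold change of 2.21 (edgeR adjusted p = 1.09e-09).

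**Figure D2:**
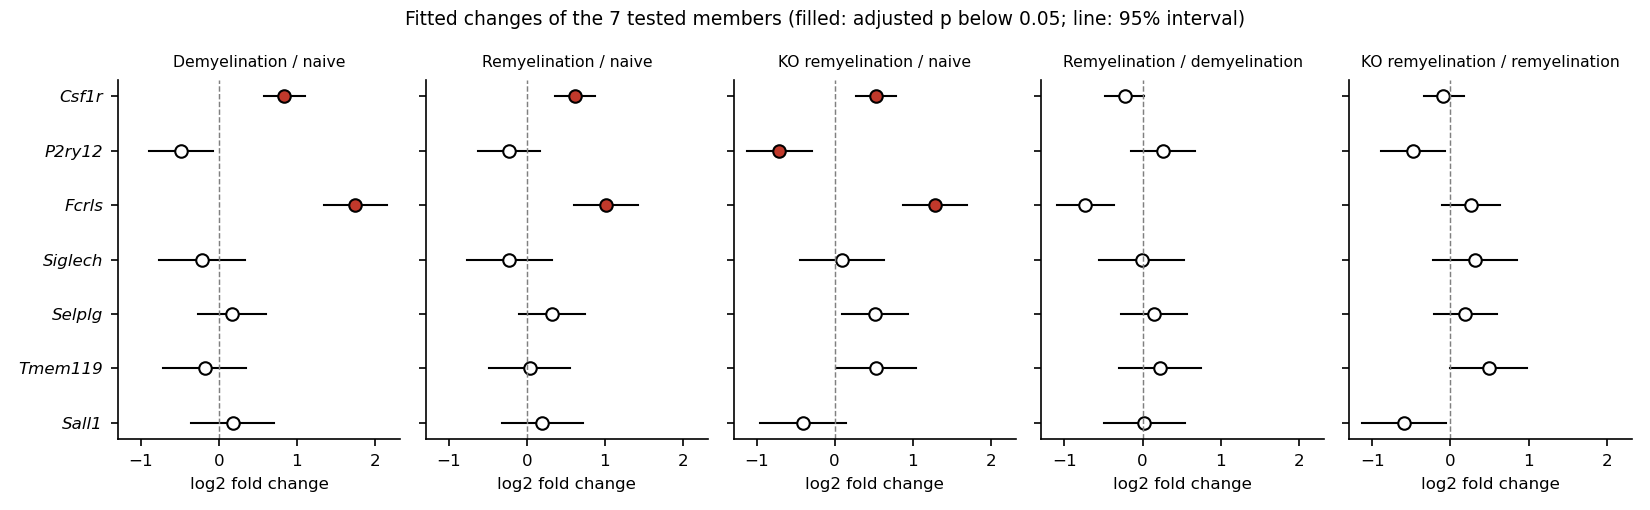
Log2 fold change from edgeR (horizontal axes) of the 7 tested homeostatic genes (rows) in the 5 comparisons (panels); lines are 95% intervals, and filled points had an adjusted p below 0.05. Fcrls (1.75) and Csf1r (0.84) stand above 0 at demyelination against naive, while the intervals of Tmem119, Sall1, Siglech and Selplg span 0 there.

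To compare the genes with one another inside each library, every count was divided by the Csf1r count of that library as log2((count + 1)/(Csf1r count + 1)), so that library size cancels, and group means were compared by two-sided exact permutation tests over 7 against 7 libraries, for which the smallest p is 0.000583. Csf1r itself was higher than in naive brains, and the ratio fell for most genes: at demyelination against naive the ratio was lower for 80.6% of 12422 genes and higher for 0.411%, with p adjusted over all of them, and the median difference was -0.83. The lower ratios of the other homeostatic genes are to be read against that share. P2ry12 had a ratio of -2.79 ± 0.46 at demyelination and -1.50 ± 0.34 in naive brains (SD, n = 7 each), a difference of -1.28 without overlap (exact permutation p = 0.000583, adjusted over all genes p = 0.00259). Tmem119 had -3.51 ± 0.30 at demyelination and -2.48 ± 0.29 in naive brains, a difference of -1.02 without overlap, at the same exact p. Sall1, Siglech and Selplg were lower too, by differences of -0.65, -0.97 and -0.70. These 5 genes thus did not rise with Csf1r, as was so for most genes. Of all genes, 5.3% fell further than P2ry12, 22.2% than Tmem119, 28.1% than Siglech, 69.1% than Selplg and 75.8% than Sall1. Selplg and Sall1 thus fell less than the median gene. Fcrls went the other way, with -1.79 ± 0.22 at demyelination and -2.67 ± 0.19 in naive brains, a difference of 0.87 without overlap (exact permutation p = 0.000583, adjusted over all genes p = 0.00259).

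In TNFR1ff remyelination against naive the ratio was lower for 64.3% of genes and higher for 0.233%, and the median difference was -0.61. P2ry12 (-0.82) and Tmem119 (-0.64) were among the lower ones, with exact permutation p adjusted over all genes of 0.00781 and 0.0184, while Fcrls was higher by 0.37 (adjusted p = 0.0109, exact permutation). Of all genes, 20.5% fell further than P2ry12 and 44.6% fell further than Tmem119, which thus lay near the median. The share that fell further was 21.4% for Siglech, 78.2% for Sall1 and 88.3% for Selplg, none of them called. In mgTNFR1KO remyelination against naive 36.6% of genes were lower and 0.217% higher, and the median difference was -0.51. Here 3.1% of genes fell further than P2ry12, 9.6% than Sall1, 61.8% than Siglech, 92.9% than Tmem119 and 94.9% than Selplg. P2ry12 was lower by a difference of -1.21 without overlap (adjusted p = 0.014, exact permutation), Sall1 by -0.94 (adjusted p = 0.0326, exact permutation), and Fcrls was higher by 0.67 (adjusted p = 0.0291, exact permutation). Tmem119 differed there by -0.09 (adjusted p = 0.672, exact permutation). With 1 library left out, and adjustment over the 40 ratio tests of these genes, P2ry12 passed in 14 of 14 fits in each of these comparisons with naive, while Tmem119 in TNFR1ff remyelination passed in 8 of 14, Fcrls in mgTNFR1KO remyelination in 9 of 14 and Sall1 there in 5 of 14. The Fcrls difference in mgTNFR1KO remyelination was 0.44 without naive replicate 1 and mgTNFR1KO replicate 1. Without both libraries neither Fcrls nor Sall1 passed there over the 40 tests, while P2ry12 did. With adjustment over all genes, 0% passed in TNFR1ff remyelination against demyelination, where Fcrls differed by -0.50 (unadjusted exact permutation p = 0.00175), and 0% in mgTNFR1KO against TNFR1ff remyelination, where Tmem119 differed by 0.55 (unadjusted exact permutation p = 0.0192). When the summed counts of 15 broad myeloid genes replaced Csf1r, the Fcrls difference at demyelination against naive was 0.07 (exact permutation p = 0.611) and the one in TNFR1ff remyelination turned to -0.09 (exact permutation p = 0.538), so Fcrls exceeded Csf1r but not the broad myeloid sum.

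**Figure D3:**
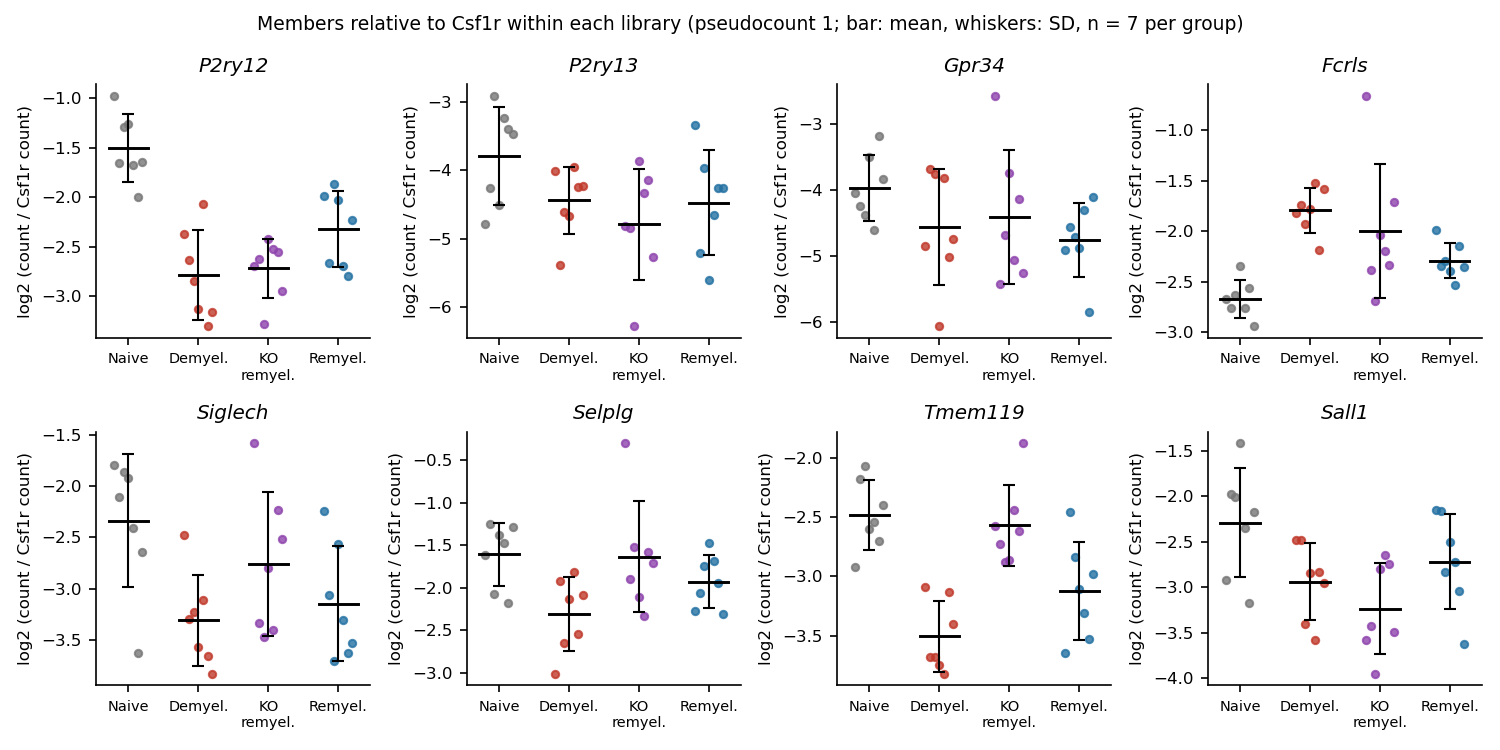
Log2 ratio of 8 homeostatic genes to Csf1r in each library (vertical axes), by group (horizontal axes); points are libraries and bars the mean with SD, n = 7 per group. P2ry12 and Tmem119 lie lower at demyelination than in naive brains (means -2.79 against -1.50 and -3.51 against -2.48), whereas Fcrls lies higher (-1.79 against -2.67).

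Between the genotypes the log2 differences of P2ry12 (-0.48) and Tmem119 (0.49) had opposite signs, with neither called. The log2 ratio of P2ry12 to Tmem119 ran from -1.06 to 0.45 in mgTNFR1KO remyelination, against -0.20 to 1.66 in TNFR1ff remyelination. The difference of -0.95 had a two-sided exact permutation p of 0.00583. The p adjusted over the 180 tests made on the 36 gene pairs in 5 comparisons was 0.0403, but adjusted within the 36 pairs of that comparison it was 0.168 and did not pass. Leaving out each of the 14 libraries in turn gave differences of -1.12 to -0.80 with exact permutation p of 0.00117 to 0.0105. The log2 ratio of Tmem119 to Sall1 differed by 1.07 (exact permutation p = 0.00932, adjusted p = 0.048 over the 180 tests and 0.168 within the 36 pairs). Over the 180 tests, 2 of 36 pairs thus passed between the genotypes, beside 12 at demyelination against naive, 11 in mgTNFR1KO remyelination against naive, 7 in TNFR1ff remyelination against naive and 4 in TNFR1ff remyelination against demyelination. Within each comparison alone the numbers were 0, 12, 12, 7 and 3 in the same order. Pairs share genes, so these are not separate results. Over the 180 tests, every pair that passed at demyelination or in TNFR1ff remyelination against naive held Csf1r or Fcrls. Every such pair in TNFR1ff remyelination against demyelination held Fcrls. In mgTNFR1KO remyelination against naive each held Csf1r, Fcrls or P2ry12. The share of all gene pairs that would pass was not computed. The 2 pairs between the genotypes were singled out after their values were seen, and the groups overlapped in each.

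The other genes of the homeostatic state that changed against naive were all higher. Of 32 further homeostatic genes 25 were tested. At demyelination against naive 5 rose and none fell, among them Trem2, a lipid-sensing receptor (1.52), Pros1 (1.39), Mertk (0.58) and Cx3cr1, the fractalkine receptor (0.67), with a list median of 0.33. In TNFR1ff remyelination against naive 2 rose, among them Trem2 (1.05), and in mgTNFR1KO remyelination against naive 2 rose, again with Trem2 (1.12). The only call between the genotypes was Cx3cr1, which averaged 25.8 ± 11.7 CPM in mgTNFR1KO remyelination and 48.4 ± 7.73 CPM in TNFR1ff remyelination (SD, n = 7 each; log2 fold change -0.89, edgeR adjusted p = 0.0365). In the commonly used lines the CreER driver takes the place of a Cx3cr1 copy, and tamoxifen is described for the knockout mice alone. The transgene, tamoxifen and the loss of TNFR1 thus cannot be told apart for this gene. The same design holds for every other gene compared between mgTNFR1KO and TNFR1ff mice.

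The general myeloid and disease-associated lists set the scale. Of 13 tested broad myeloid genes, 11 rose at demyelination against naive with a median log2 fold change of 1.52, and of 23 disease-associated microglia genes 20 rose, also with a median of 1.52. The 7 tested homeostatic genes had a median of 0.17 in the same comparison. In TNFR1ff remyelination against naive, 8 of 13 broad myeloid and 14 of 23 disease-associated genes rose (medians 1.17 and 0.90), and in mgTNFR1KO remyelination against naive 8 and 17 rose (medians 1.11 and 0.98). Between the genotypes none of either list was called by edgeR (medians 0.04 and 0.07; 0 and 4 at an unadjusted p under 0.05).

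**Figure D4:**
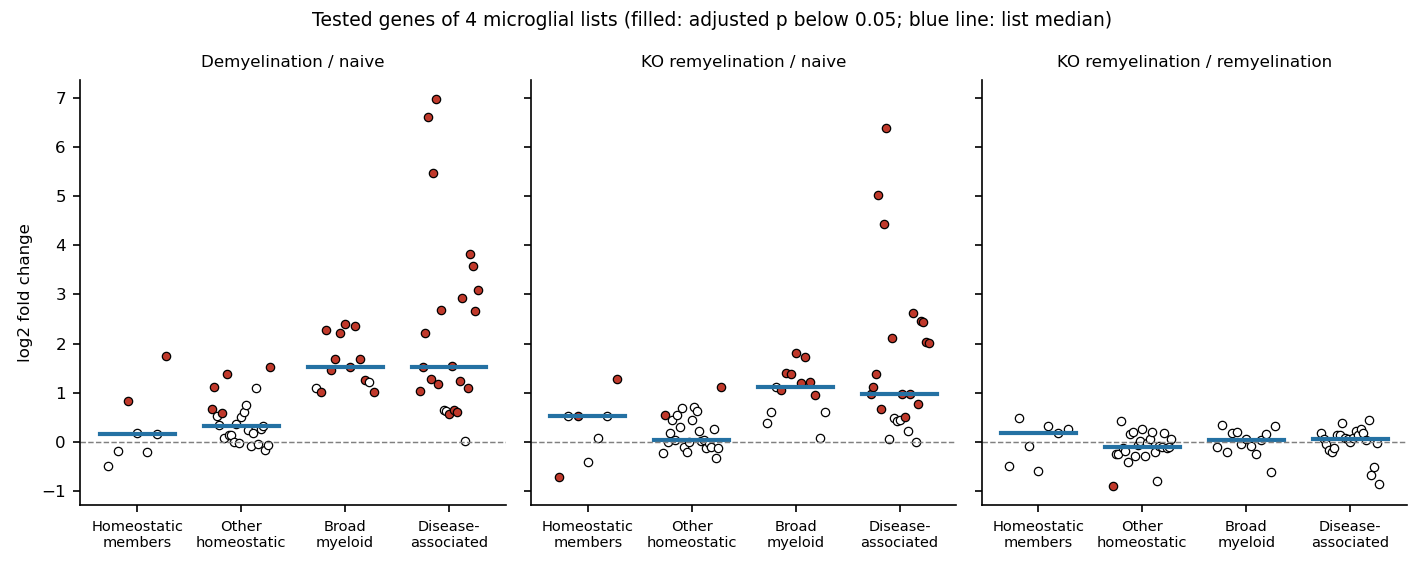
Log2 fold changes (vertical axis) of the tested genes of 4 lists (horizontal axis) in 3 of the comparisons (panels), 1 point per gene; filled points had an edgeR adjusted p below 0.05 and lines mark list medians. Most broad myeloid and disease-associated genes lie above 0 at demyelination against naive (median 1.52 in both lists), and the 7 homeostatic genes spread from -0.49 to 1.75 around a median of 0.17.

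Markers of other blood and border cells had lower sums than the homeostatic genes. In the order naive, demyelination, mgTNFR1KO remyelination and TNFR1ff remyelination, the 12 border macrophage genes summed to 11 to 18.1, 5.34 to 29.0, 12.8 to 30.8 and 12 to 21.4 CPM. The 12 monocyte and neutrophil genes summed to 2.29 to 8.84, 1.17 to 7.12, 1.03 to 10.2 and 2.01 to 32.2 CPM in the same order. Their counts summed to 58, 56, 75 and 142, while the median sums per library were 3.51, 3.93, 4.84 and 3.29 CPM. The higher count total in TNFR1ff remyelination was thus not seen in its median. S100a8 had 44 counts in TNFR1ff remyelination and 17 in naive brains, S100a9 had 31 and 10, and the monocyte marker Ccr2 had 5 and 0. Plac8 (5 and 12) and Ly6c2 (0 and 2) went the other way, and Ly6c2 had 10 in mgTNFR1KO remyelination. The neutrophil marker Ly6g was at 0 in all 4 groups. The 14 lymphocyte and plasmacytoid dendritic cell genes, listed because the last also make Siglech, summed to 11.5 to 23.0, 11.5 to 26.1, 11.7 to 27.1 and 14.7 to 22.1 CPM, with the T-cell marker Cd3d at 0 in all 4 groups. Cox6a2 alone gave 180 of 226, 226 of 263, 265 of 311 and 250 of 297 counts of this list, so the sum mostly follows that gene. By comparison the 9 homeostatic genes summed to 119 to 165, 156 to 232, 151 to 213 and 144 to 187 CPM. Csf1r alone gave 725 of 1833, 1375 of 2782, 1175 of 2608 and 1330 of 2821 of their counts. No gene of these 3 lists was called in any of the 5 comparisons; 3 were high enough to be tested. Their part in the results was not tested.

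Across all 28 libraries, whose groups, depth and scaling the genes share, the expression of Csf1r and Fcrls in log2 CPM correlated at r = 0.74, whereas P2ry12 and Fcrls correlated at r = -0.44, and the other pairs of tested members lay between -0.36 and 0.30. The genes most like Csf1r were Ctsd (r = 0.89), Lgals3bp (0.85) and Laptm5 (0.82), and those most like Fcrls were C1qc (0.93), Ctss (0.89) and Apoe (0.89); Ctsd and Ctss are lysosomal proteases and C1qc is a complement gene. The best match of P2ry12 was B230209E15Rik (0.75), followed by Cmtm5 (0.72), and those of Tmem119 (Rnf122, 0.66), Sall1 (Gm10443, 0.65), Siglech (Pdxdc1, 0.68) and Selplg (Ube2j2, 0.71) were lower in r. These are descriptions over n = 28 libraries with no test.

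P2ry12 and Csf1r share exon sequence with genes on the opposite strand, Med12l and Hmgxb3, in GENCODE M21, and P2ry13 and Gpr34 lie inside Med12l and Cask without exon overlap. The strand setting of the counting is not given in the sources used here, so reads of such pairs may not be told apart. Med12l differed from naive by -0.18 at demyelination and by -0.15 in mgTNFR1KO remyelination, Hmgxb3 by -0.02 and -0.15, and neither was called in any of the 5 comparisons.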

How the data were processed

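Whole-brain poly(A) RNA was measured with 3' QuantSeq libraries in 4 groups of 7, grouped by the genotype and treatment labels. The authors deposited 1 table of RSEM expected counts per library; FastQC, cutadapt, STAR, RSEM, edgeR and the build GRCm39 are named in the submitters' processing notes, with no versions. Of nonzero values 89.83% to 92.05% were whole within 0.005, and the rest were rounded here. Expected counts split reads shared by similar or overlapping genes, and 3' counting gives no information on isoforms. Rows with no gene symbol (10.76% of counts) stayed in the library sizes, since each names a gene identifier.

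Rounded expected counts of all 28 libraries entered 1 fit with a mean per group, TMM scaling and filterByExpr, leaving 12423 genes, and 5 contrasts were tested with the quasi-likelihood test of edgeR 4.0.16 (R 4.3.3, limma 3.58.1), adjusted by Benjamini-Hochberg over these genes, and a threshold of 0.05; the biological coefficient of variation estimated over all genes was 19.5%. Steps were tested on simulated data. Ratios used a pseudocount of 1 and exact permutation tests, planned with adjustment over 40 tests; the adjustment over all genes, the gene pairs and the left-out libraries of the ratios were added after seeing the data. The alternatives were no filter, other scalings, 2-group fits, a replicate block, DESeq2 1.42.0, each library left out, 2 other pseudocounts and a broad myeloid denominator. No 2 libraries agreed within sampling noise (lowest chi-square per degree of freedom 2.6). Intervals and floors cover counting error or library spread only.

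All 9 genes are named; of other lists, called genes with the smallest adjusted p; and for each tested member the tested genes of at least 10 CPM with the highest correlation, up to 3. The members and lists were chosen with earlier results of these data known. Some genes of these lists are not reported here.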

Additional observations from a re-analysis of the deposited data

Results flagged for a closer look

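In each group of 7 libraries the highest and lowest value of each of the 9 genes was set against its neighbour, and 7 of 36 groups held a library whose gap exceeded Dixon's 95% critical value, taken as a share of the range; chance flags about 5% of groups. P2ry12 was highest in naive replicate 1, at 32.3 CPM. P2ry13 was lowest in demyelination replicate 2, at 1.68 CPM. Tmem119 stood high in mgTNFR1KO replicate 7, at 24.9 CPM, and in naive replicate 3, at 12.3 CPM. Csf1r was lowest in mgTNFR1KO replicate 1, at 49.7 CPM, the library that also had the highest Fcrls (31.1 CPM), Selplg (40.1 CPM) and Gpr34 (7.78 CPM) and the lowest P2ry12 (7.18 CPM) and Sall1 (3.59 CPM) of its group. Gpr34 was highest in naive replicate 6, at 6.41 CPM. Fcrls was highest in TNFR1ff remyelination replicate 6, at 20.9 CPM.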

How the results depend on the processing

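Csf1r and Fcrls stayed called at demyelination and in TNFR1ff remyelination against naive in every alternative tried. All alternatives were planned except where said. Genes called were 78 in TNFR1ff remyelination against naive, but 122 with no filter, 147 with the replicate block and 147 with DESeq2. Between the genotypes 6 became 28 with no filter and 11 with DESeq2. In mgTNFR1KO remyelination against naive 403 became 253 with library totals, 608 with the replicate block and 644 without naive replicate 1 and mgTNFR1KO replicate 1. With library totals the split of higher to lower calls was 190 to 59 at demyelination against naive (162 to 87 otherwise) and 145 to 108 in mgTNFR1KO remyelination against naive (191 to 212 otherwise). Leaving out 1 library gave 173 to 312, 58 to 157, 34 to 56, 4 to 8 and 147 to 737 genes for demyelination, TNFR1ff remyelination, TNFR1ff remyelination against demyelination, the genotypes, and mgTNFR1KO remyelination, the others against naive. The lowest of the last, 147, came without mgTNFR1KO replicate 7 and the highest, 737, without mgTNFR1KO replicate 1. Of the 9 genes, 1 (Fcrls) was called in TNFR1ff remyelination against demyelination in the 2-group fit, with DESeq2 and without the naive and mgTNFR1KO replicates 1, and 0 to 1 with a library left out (1 without demyelination replicate 1 or TNFR1ff remyelination replicate 6); 1 to 3 were called in mgTNFR1KO remyelination against naive.

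With adjustment over the 40 planned ratio tests, 13 passed: 5, 4, 1, 0 and 3 in the same order. At demyelination, in TNFR1ff and in mgTNFR1KO remyelination against naive, 4, 3 and 2 of 8 were lower, with 1 higher each time. With adjustment over all genes, 80.6%, 64.3% and 36.6% of genes were lower there, and 0.411%, 0.233% and 0.217% higher. Without the naive and mgTNFR1KO replicates 1 the total was 8, with 3 at demyelination and 1 in mgTNFR1KO remyelination against naive. With the broad myeloid denominator it was 28, with 7, 5, 2 and 7 in the last 4, and the share of all genes was not computed for it. A pseudocount of 5 gave 1 between the genotypes. As a sign-flip test over same-numbered pairs, the replicate block left 0 in total, 0 in each comparison, since its smallest p is 0.0156. With a library left out (added after seeing the data) the counts ran over 3 to 6, 2 to 4, 1 to 1, 0 to 1 and 1 to 4. The replicate numbers did not clearly pair the libraries. Same-numbered correlations ran from -0.131 to 0.302, and the own number was the best match for 0 to 3 of 7 libraries in each pair of groups. A partial pairing was not tested. In the edgeR fit the block gave P2ry12 an adjusted p of 0.0518 in mgTNFR1KO remyelination against naive.

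Directions reversed only for values that were not called, apart from Fcrls to Csf1r in TNFR1ff remyelination against naive (-0.09, broad myeloid). Against demyelination in TNFR1ff remyelination the ratio of P2ry13 was 0.01 with a pseudocount of 5, 0.30 with the broad myeloid denominator and -0.22 to 0.16 with a library left out, and that of Gpr34 was 0.14 with the broad myeloid denominator. With a library left out Tmem119 ran from -0.13 to 0.16 in TNFR1ff remyelination against naive, Sall1 from -0.12 to 0.12 and Siglech from -0.12 to 0.08 in TNFR1ff remyelination against demyelination, and Siglech from -0.05 to 0.23 and the ratio of Selplg to Csf1r from -0.25 to 0.08 in mgTNFR1KO remyelination against naive. The cause was not tested. P2ry13 and Gpr34 rest on 40 to 59 counts per group.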
